A study of Mus musculus with 10 samples.

Results

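The Cd300 receptor genes and their neighbours Rab37, Slc9a3r1 and Tmem104 form a block on mouse chromosome 11 that was densely marked by H3K27ac and H3K4me1 in bone marrow-derived mast cells. The window was taken from 114730000 to 115120000 on the mm9 build, and every deposited peak that overlapped it by 1 bp or more was included. This gave 413 peaks of 234627 in the 5 lists. Replicates 1, 2 and 3 of H3K27ac had 69, 63 and 64 peaks there, and replicates 1 and 2 of H3K4me1 had 115 and 102. The window was selected on measured values: it surrounds a region from 115054419 to 115064509 that its definition calls strong, with both marks. The definition does not say by which value that region was chosen. The strength of that region is therefore described and not tested.

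Chromatin came from mast cells grown from femur and tibia marrow of C57BL/6 mice aged 6 to 8 weeks, cultured for 4 weeks with 20 ng/ml of interleukin 3. Over 99% of the cells carried both FcεRI, the IgE receptor, and c-Kit on flow cytometry, per the labels, which name no other treatment or allele. Cells were fixed with 1% formaldehyde, and 3 samples were precipitated with an antibody to H3K27ac and 2 with an antibody to H3K4me1, each with an input sample of its own. The study's stated aim was to find putative enhancers. The cells are a culture model of mast cells and were not taken from tissue. The labels do not say whether replicates were separate cultures, so the spread between them may be technical. Mast cell identity was not checked in these data, since no annotation of the mm9 build was used and RNA was not measured.

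H3K27ac, acetylation of lysine 27 of histone H3, is found at active promoters and enhancers. H3K4me1, monomethylation of lysine 4, marks enhancers in either state, active or not, and is low at the start sites of active promoters. The CD300 molecules are immunoglobulin-domain receptors of myeloid cells with inhibitory and activating members. Cd300a and Cd300lf encode receptors with inhibitory motifs in their tails, and Cd300a is known to restrain mast cell activation. Cd300lb and Cd300ld encode activating receptors that signal through adaptor proteins. Rab37 encodes a small GTPase of secretory vesicles that is known in mast cell granules. Slc9a3r1 encodes NHERF1, a PDZ scaffold that ties membrane proteins to ezrin and actin.

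The order of the genes was read from RefSeq on GRCm38.p6, a later build whose positions were not converted to mm9. In that order Gprc5c is followed by Cd300a, Cd300lb, Cd300c, Cd300ld, Cd300c2, Cd300ld4, Cd300ld2, Cd300ld5, Cd300ld3, Cd300e, Rab37, Cd300lf, Slc9a3r1, Nat9, Tmem104, Grin2c and Fdxr. Rab37 and Cd300lf overlap each other. On mm9 the window's definition puts the Cd300 genes at about 114751000 to 114995000, called the Cd300 stretch here. No peak was assigned to a gene, and which of Rab37 and Cd300lf lies on which side of the end of that stretch was not determined.

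Promoter sequences from RefSeq on GRCm38.p6 are shown for 2 properties of the block, near-identical gene copies and base composition. They were matched by symbol for 13 of 15 genes, and each runs from 250 bases before to 50 bases after the start of the gene. The promoters of Cd300ld4 and Cd300ld5 were identical over all 300 bases, and that of Cd300ld3 differed from them at 15 positions. Compared position by position, with no shift or gap, no other pair of the 10 Cd300 promoters shared more than 28.7% of its bases. Likeness at shifted positions is missed by this count, so it does not show that the other promoters are unrelated. The first 2 sequences have in capitals the bases at which Cd300ld4 (chr11:115026884-115027183, minus strand) and Cd300ld3 (chr11:115048281-115048580, minus strand) differ. The last 2 have CpG dinucleotides in capitals, for Cd300a (chr11:114889791-114890090, plus strand) and Tmem104 (chr11:115187237-115187536, plus strand).
Cd300ld4: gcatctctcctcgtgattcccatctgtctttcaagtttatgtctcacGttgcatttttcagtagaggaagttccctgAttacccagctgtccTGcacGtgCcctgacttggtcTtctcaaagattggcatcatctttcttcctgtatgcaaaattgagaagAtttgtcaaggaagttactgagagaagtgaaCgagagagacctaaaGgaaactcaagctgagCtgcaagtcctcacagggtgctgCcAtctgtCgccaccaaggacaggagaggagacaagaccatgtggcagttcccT
Cd300ld3: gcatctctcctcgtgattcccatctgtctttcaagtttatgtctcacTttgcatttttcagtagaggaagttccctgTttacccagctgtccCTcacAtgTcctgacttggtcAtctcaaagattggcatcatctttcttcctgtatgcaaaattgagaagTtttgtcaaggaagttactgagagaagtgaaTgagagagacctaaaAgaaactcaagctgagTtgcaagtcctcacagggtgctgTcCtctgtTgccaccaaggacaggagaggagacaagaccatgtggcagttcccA
Cd300a: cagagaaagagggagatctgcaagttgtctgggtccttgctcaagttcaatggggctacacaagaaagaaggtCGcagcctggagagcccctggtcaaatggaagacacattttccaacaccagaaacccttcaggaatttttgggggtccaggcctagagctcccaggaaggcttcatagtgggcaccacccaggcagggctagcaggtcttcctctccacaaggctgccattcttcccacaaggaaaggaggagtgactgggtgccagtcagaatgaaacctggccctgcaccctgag
Tmem104: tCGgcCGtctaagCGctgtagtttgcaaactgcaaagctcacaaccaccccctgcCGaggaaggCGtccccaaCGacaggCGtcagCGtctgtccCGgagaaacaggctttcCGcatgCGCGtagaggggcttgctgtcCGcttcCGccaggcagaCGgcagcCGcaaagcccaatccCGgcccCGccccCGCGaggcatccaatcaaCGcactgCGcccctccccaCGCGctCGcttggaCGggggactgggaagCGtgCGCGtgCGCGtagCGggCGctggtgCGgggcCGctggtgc
The Cd300 promoters held 1 to 6 CpG each, with 1 in Cd300a, 4 in Cd300lb, 3 in Cd300ld and 6 in Cd300lf. Slc9a3r1 held 27 and Tmem104 held 35, against a median of 7 over all 32851 promoters in the table. How tags that match several of the near-identical Cd300ld copies were placed is not stated in these sources, so peaks at those copies are uncertain.

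Immunoprecipitate tags kept after removal of duplicates numbered 16356587, 11413241 and 10457047 for H3K27ac and 19513552 and 14685161 for H3K4me1. Each list gives, for each peak, the authors' own fold enrichment over the input and a q-value of at most 0.001. A place without a peak therefore means only that this limit was not passed. The H3K27ac lists were called with MACS2 2.1.1.20160309 and the H3K4me1 lists with 2.0.10.20130306, so the mark and the caller version cannot be told apart in any difference between marks.

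The window as a whole was among the most heavily marked stretches of its width. Peaks covered 25.8, 20.5 and 19.3% of its bases in the H3K27ac lists, replicates 1 to 3, and 20.2 and 19.8% in the H3K4me1 lists, replicates 1 and 2. In 6565 consecutive tiles of the same width along chromosomes 1 to 19 and X, the median cover was 0.177, 0.112 and 0.0936% for H3K27ac and 0.233 and 0.214% for H3K4me1. Only 2, 5 and 5 of these tiles reached the window's H3K27ac cover, and 9 and 9 reached its H3K4me1 cover. These ranks describe a window that was chosen for its strong peaks and carry no test.

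**Figure D1:**
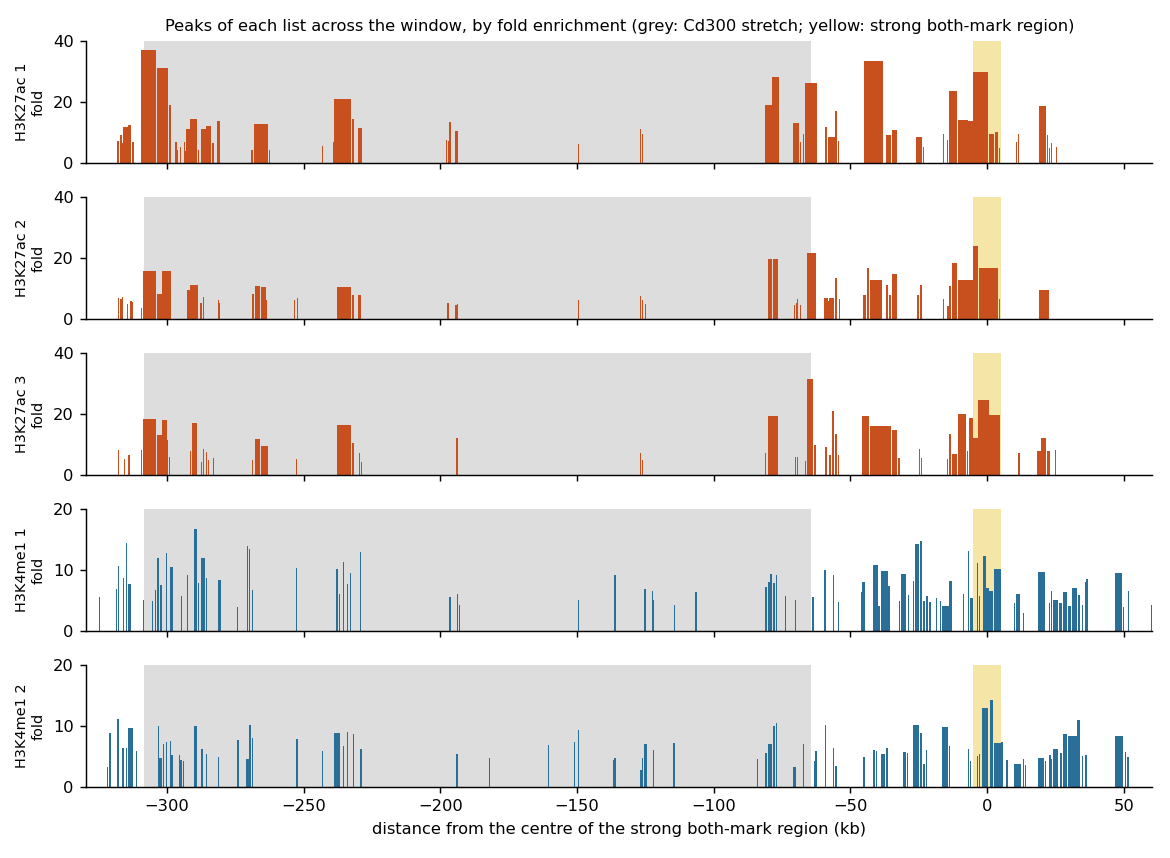
Peaks of each list across the window, as bars that span the peak and reach its fold enrichment over input, against the distance in kb from the centre of the strong region with both marks. The 3 H3K27ac lists stand above the 2 H3K4me1 lists, with a scale to 40 for H3K27ac and to 20 for H3K4me1; tall H3K27ac peaks flank a sparsely marked middle, and H3K4me1 alone fills the right end.

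Peaks were long here. Median peak lengths in the window were 784, 631 and 523.5 bp in H3K27ac replicates 1, 2 and 3, against 493, 487 and 478 bp over the whole lists. In H3K4me1 replicates 1 and 2 they were 498 and 540.5 bp in the window, against 356 and 437 bp over the whole lists. Peaks of at least 1 kb made up 44.9, 33.3 and 32.8% of the window's H3K27ac peaks and 18.3 and 19.6% of its H3K4me1 peaks, whereas over the lists they made up 20.4, 19.4 and 19.7% and 7.63 and 10.7%. Typical strength stood out less than length. Median folds in the window were 9.52, 7.12 and 7.91 for H3K27ac, against 7.93, 6.80 and 7.54 over the lists. For H3K4me1 they were 6.64 and 5.99 in the window, against 6.50 and 6.13 over the lists, so that replicate 2 lay below its own list.

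Recurrence between replicates in the window was near that of the lists or above it. Of the window's peaks, 56.5, 74.6 and 82.8% in H3K27ac replicates 1, 2 and 3 overlapped a peak of both other lists of the mark, beside 56.5, 68.5 and 75.7% of all peaks of those lists. For H3K4me1 replicates 1 and 2, 73.9 and 78.4% overlapped a peak of the other list, beside 65.0 and 73.8% of all peaks. All 5 window shares were at or above those of their lists. The 5 whole-list shares lay within the 95% Clopper-Pearson intervals of the window's shares. The closest to a bound was that of H3K4me1 replicate 1, at 65.0% with an interval of 64.9 to 81.7%. Neighbouring peaks are not replicates, so the intervals cover counting error only and serve as no test.

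Regions found in every list of a mark, called consensus regions here, were joined stretches of that mark's peaks. H3K27ac had 29 consensus regions among 61 joined stretches in the window (47.5%), near the 45.5% of the whole series. H3K4me1 had 76 among 128 (59.4%), against 51.2% in the whole series. The H3K27ac consensus regions covered 92.6 kb and were long, with a median of 2094 bp in the window and 981.5 bp in the series. Of the 29 here, 6 were at least 5 kb long, against 533 of 19670 in the series. The H3K4me1 consensus regions covered 79.7 kb with a median of 790 bp, against 610 bp in the series. None of the 76 reached 5 kb, a length that only 45 of 42329 reached in the series.

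The marks coincided more often here than in the series as a whole, which is given without a test. Overlap was counted from 1 bp, so longer regions and denser cover raise it, and the series share is no like baseline. H3K27ac consensus regions had a median of 2094 bp here, against 981.5 bp in the series. H3K4me1 peaks covered 20.2 and 19.8% of the window, against 1.33 and 1.33% over the chromosomes. The part of length and cover in the shares was not tested. Of the 29 H3K27ac consensus regions, 22 overlapped a consensus region of H3K4me1 (75.9%, 95% Clopper-Pearson interval 56.5 to 89.7), beside 40.5% in the series. Only 2 of the 29 (6.90%, 0.846 to 22.8) lay clear of every H3K4me1 peak, beside 46.9% in the series. The remaining 5 met H3K4me1 peaks that formed no consensus region with them. Of the 76 H3K4me1 consensus regions, 43 overlapped an H3K27ac consensus region (56.6%, 44.7 to 67.9), beside 24.4% in the series, and 20 met no H3K27ac peak (26.3%, 16.9 to 37.7), beside 61.7%. Peaks of a window share their chromatin and are not replicates, so the intervals cover counting error only.

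**Figure D2:**
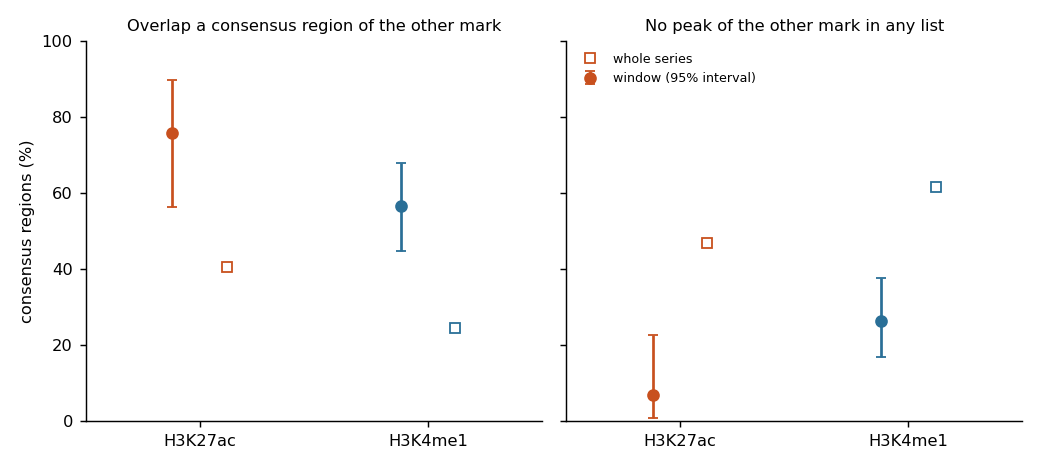
Percent of consensus regions that overlap a consensus region of the other mark (left) or no peak of the other mark (right), for H3K27ac and then H3K4me1. Filled points are the window with 95% Clopper-Pearson intervals and open squares the whole series: 75.9 against 40.5% of H3K27ac regions and 56.6 against 24.4% of H3K4me1 regions met the other mark.

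Summits gave the same order. In the window 50.7, 58.7 and 48.4% of H3K27ac summits lay inside an H3K4me1 consensus region, beside 26.1, 25.2 and 26.0% in the whole lists. In turn 47.0 and 49.0% of H3K4me1 summits lay inside an H3K27ac consensus region, beside 18.5 and 18.1% in the whole lists. All 5 lists had the higher share in the window, which is a window that a strong region with both marks had selected. Its denser cover by both marks raises such shares too, by an amount that was not tested.

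Joining overlapping consensus regions of both marks gave 22 regions with both marks, of 7587 in the series, numbered 1 to 22 along the window. They spanned 700 to 10596 bp with a median of 2430.5 bp, against 1828 bp in the series, and covered 79.4 kb or 20.4% of the window. The median tile of the same width held 0 such regions and the richest 29, and 4 of the 6565 tiles held at least 22. Of the 22, 3 lay before the Cd300 stretch, 11 in it and 8 after it. Those after it were longer, with a median of 5110 bp, than those in the stretch, with 1993 bp. H3K27ac peaks covered 86.7, 75.8 and 71.3% of their summed length and H3K4me1 peaks 53.5 and 51.8%. In 12 of the 22 every H3K27ac list covered more bases than either H3K4me1 list, and in 2 every H3K27ac list covered fewer. Over all 7587 regions of the series these shares were 45.2% and 16.1%, against 54.5% and 9.09% of the 22.

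The strength of the 22 ranged widely. The lowest, median and highest fold were 4.14, 13.5 and 33.6 in H3K27ac replicate 1, 5.05, 8.80 and 24.1 in replicate 2, and 4.76, 11.2 and 24.6 in replicate 3. They were 4.21, 10.3 and 16.7 in H3K4me1 replicate 1, and 2.74, 8.35 and 14.3 in replicate 2. Ordered by mean rank of fold over the 5 lists, 6 of the 22 fell in the first 10% of the 7587 and 2 in the last 10%.

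**Figure D3:**
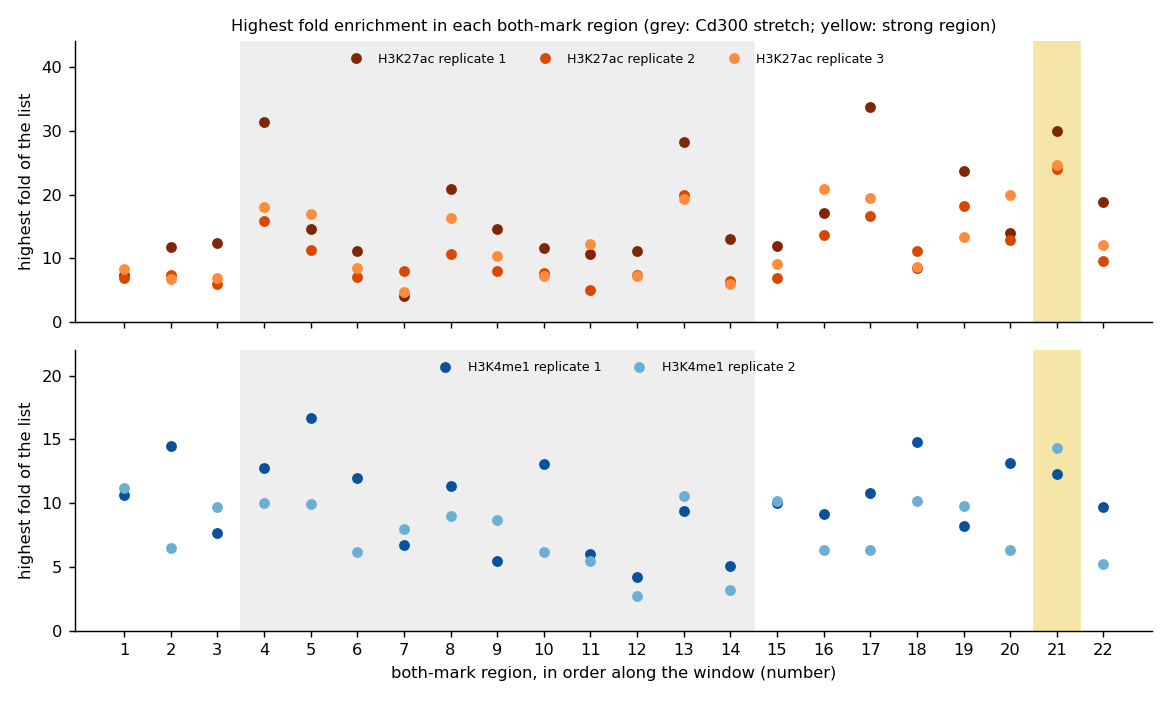
Highest fold enrichment of each list in the 22 regions with both marks, numbered along the window, H3K27ac above and H3K4me1 below. Region 21, the strong one, is high in all 5 lists, at 24.1 to 29.9 for H3K27ac and 12.3 to 14.3 for H3K4me1, whereas region 17 reaches 33.6 in H3K27ac replicate 1 and 6.34 in H3K4me1 replicate 2.

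The strong region, number 21, spans 10091 bp and was placed 5 of 7587 by mean rank. The window was chosen around it for its strength, so this place is no independent result. Its highest folds in replicates 1, 2 and 3 of H3K27ac were 29.9, 24.1 and 24.6, and those in replicates 1 and 2 of H3K4me1 were 12.3 and 14.3. It was the highest place of the window in H3K27ac replicate 2 and in H3K4me1 replicate 2, but not in the other 3 lists. The region was not uniform inside. The highest H3K27ac summits lay 1.52, 1.48 and 2.28 kb from its start in replicates 1 to 3, within 795 bp of each other. The highest H3K4me1 summits lay further in, at 4.21 and 6.92 kb, and 2714 bp apart.

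**Figure D4:**
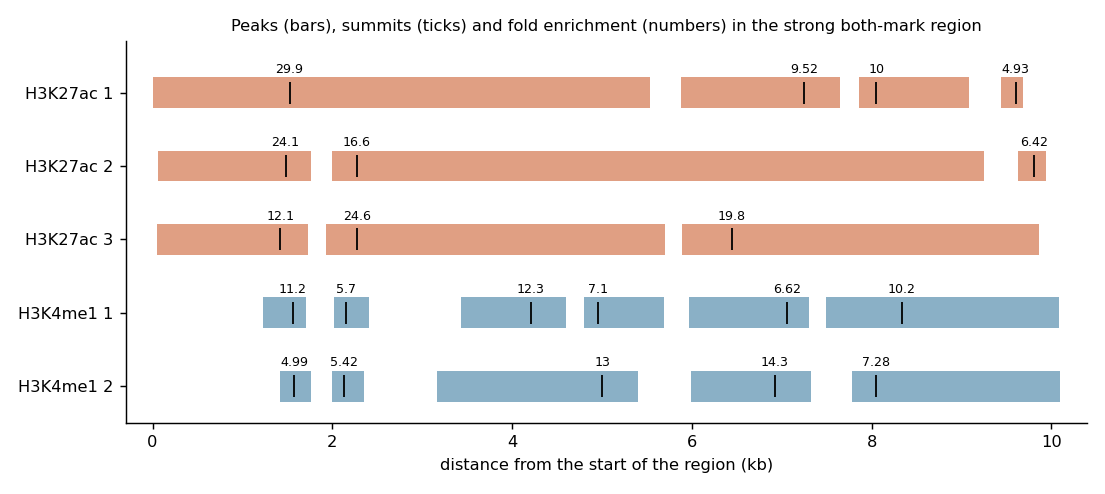
The strong region with both marks, list by list, with H3K27ac above H3K4me1: bars are peaks, ticks are summits and the numbers above them fold enrichments, against the distance in kb from the start of the region. H3K27ac is highest in the first 2.28 kb, where the H3K4me1 peaks are shorter than those further in and reach at most 11.2 and 5.42 in replicates 1 and 2, and the tallest H3K4me1 peaks lie 4.21 and 6.92 kb in.

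At the highest H3K27ac summits of the strong region the H3K4me1 peaks were shorter than those further in. They were not short for their lists, whose median lengths were 356 and 437 bp in replicates 1 and 2. Over the first part of the region, H3K27ac replicate 1 had a single peak of 5532 bp, replicate 2 had peaks of 1699 and 7256 bp, and replicate 3 had peaks of 1682 and 3768 bp. There H3K4me1 replicate 1 had a peak of 473 bp with its summit at 1.56 kb and a fold of 11.2. Replicate 2 had a peak of 349 bp at 1.58 kb with a fold of 4.99. The first of these folds was in the top 5.97% of its list and the second only within the top 74.6%, so the replicates differed. At 2.15 and 2.13 kb the H3K4me1 replicates had peaks of 396 and 365 bp, with folds of 5.70 and 5.42. Further along, the 5532 bp peak of H3K27ac replicate 1 also spanned longer H3K4me1 peaks, one of 1168 bp in replicate 1 and one of 2228 bp in replicate 2.

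Other regions with both marks reached high folds. Region 17, from 115013841 to 115024436, was the longest at 10596 bp, with folds of 33.6, 16.7 and 19.4 for H3K27ac and 10.8 and 6.34 for H3K4me1. Its place was 1048 of 7587, with a fold in H3K4me1 replicate 2 that was only within the top 45.4% of that list. In the Cd300 stretch region 4, from 114755936 to 114761872, was placed highest, at 49, with folds of 31.4, 15.8 and 18.0 for H3K27ac and 12.8 and 10.0 for H3K4me1. Its H3K27ac summits lay within 67 bp of each other. Region 13, from 114978105 to 114983245 and placed 219, had folds of 28.3, 19.9 and 19.3 for H3K27ac and 9.41 and 10.5 for H3K4me1. Region 5, from 114767960 to 114770715, held the window's highest H3K4me1 peak, a fold of 16.7 in replicate 1 against 9.93 in replicate 2, beside 14.5, 11.3 and 16.9 for H3K27ac.

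The other regions with both marks were placed from 419 to 7411. Regions 8, 19, 16, 18 and 20 were placed 419, 733, 1655, 1233 and 1315, with highest H3K27ac folds of 20.9, 23.6, 20.9, 11.2 and 19.9 in any list. Regions 1, 2, 3, 6, 9, 10, 15 and 22 were placed between 1743 and 4064. Regions 7, 11, 12 and 14, all in the Cd300 stretch, were the weakest and were placed 6357, 6423, 7411 and 7369. Region 12, from 114932424 to 114933123, had folds of 11.1, 7.45 and 7.22 for H3K27ac and 4.21 and 2.74 for H3K4me1. No peak of H3K4me1 replicate 2 in the window had a lower fold than this 2.74.

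H3K27ac was also strong at both outer bounds of the Cd300 stretch, where no H3K4me1 consensus region overlapped it. The region from 114750052 to 114755639 lay across the first bound and reached folds of 37.2, 15.7 and 18.4 in H3K27ac replicates 1, 2 and 3. H3K4me1 replicate 1 covered 1177 bp of its 5588 bp with a fold of 6.70, and replicate 2 had no peak in it. The region from 114993058 to 114997269 lay across the last bound and reached 26.2, 21.7 and 31.4, with summits at 114995062, 114995037 and 114995067. H3K4me1 replicates 1 and 2 covered 762 and 787 bp of its 4212 bp, with folds of 5.63 and 5.97, but at places that did not overlap each other. These regions held the highest H3K27ac peak of the window in replicate 1 and in replicate 3. The bounds are those of the window's definition and are only approximate, and whether a start site lies there was not determined.

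Another long H3K27ac region of the same kind lay inside the stretch. From 114791524 to 114796484 it had folds of 12.9, 10.9 and 11.8 for H3K27ac, whereas H3K4me1 replicate 1 covered 258 of its 4961 bp and replicate 2 had no peak in it. The 2 H3K27ac consensus regions with no H3K4me1 peak in any list were shorter. One, from 115024686 to 115026625, had folds of 10.9, 14.8 and 14.9, and the other, from 114742358 to 114742989, had 9.35, 6.50 and 6.25.

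Of the 20 H3K4me1 consensus regions with no H3K27ac peak in any list, 2 lay before the Cd300 stretch, 5 in it and 13 after it, and 8 of these 13 formed a run at the far end of the window. After the last H3K27ac consensus region, which ended at 115082590, 10 consensus regions of H3K4me1 followed, of which those 8 lay between 115085668 and 115111508. They summed to 12.96 kb, and their folds ranged over 4.21 to 9.56 in replicate 1 and 4.94 to 10.9 in replicate 2. The best placed, from 115106134 to 115109657, had folds of 9.56 and 8.44 with summits 26 bp apart. The next, from 115088947 to 115092355, had 7.10 and 8.38. The other 2 named from the tail, from 115092560 to 115093592 and from 115087110 to 115088754, had folds of 5.97 and 10.9 and of 6.42 and 8.69. The region named outside the tail, from 115028137 to 115029837, had 9.35 and 5.80 and lay inside the largest stitched H3K27ac cluster. The 10 kb from 115090000 to 115099999 had 0% H3K27ac cover in all 3 lists and 44.3 and 46.0% H3K4me1 cover.

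Stitching H3K27ac consensus regions across gaps of up to 12.5 kb gave 7 clusters. The largest ran from 114978328 to 115064354, across the end of the Cd300 stretch and through the strong region, with 11 regions and 49.9 kb of cover in 86.0 kb. The first ran from 114741288 to 114773692 with 9 regions and 20.9 kb of cover in 32.4 kb. Between them lay shorter clusters, among them 2 in the first part of the Cd300 stretch, from 114790278 to 114796484 and from 114820730 to 114830995, with 6.05 kb of cover in 6.21 kb and 8.80 kb in 10.3 kb. The long gaps lay beyond these. The longest gap between H3K27ac consensus regions was 66.3 kb, from 114866098 to 114932423, and the next, from 114933747 to 114978327, was 44.6 kb. The near-identical Cd300ld copies, where peaks are uncertain, would fall in the longest gap under 2 assumptions. These are that Cd300a starts near the first bound of the Cd300 stretch and that mm9 keeps the distances of GRCm38.p6. Positions were not converted to mm9, so this was not checked. No peak of any list of either mark lay between 114830996 and 114861437, over 30.4 kb. Of 39 bins of 10 kb, 35 held a peak. Every H3K27ac list exceeded both H3K4me1 lists in 9 of the 35, or 25.7%, against 17.8% of the 46489 bins with a peak in the series. Every H3K27ac list lay below both in 13, or 37.1%, against 41.4% in the series.

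The bins of heaviest H3K27ac cover lay near the start of the Cd300 stretch and across the start of the strong region. From 114750000 to 114759999, H3K27ac peaks covered 96.5, 91.9 and 87.5% and H3K4me1 peaks 29.5 and 19.7%. From 115050000 to 115059999, they covered 95.8, 94.9 and 91.4% and 46.9 and 37.3%. In both bins the groups did not overlap. The next bin, from 115060000 to 115069999, holds the end of the strong region and had the other order. There H3K27ac peaks covered 32.3, 39.7 and 41.0% and H3K4me1 peaks 45.6 and 60.5%.

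Over the Cd300 stretch as a whole, replicates 1, 2 and 3 of H3K27ac covered 20.8, 15.3 and 13.3% of the bases with peaks, and replicates 1 and 2 of H3K4me1 covered 10.3 and 11.0%. All 3 H3K27ac lists lay above both H3K4me1 lists. The means were 16.5 ± 3.88% (SD, n = 3) and 10.6 ± 0.449% (SD, n = 2), a difference of 5.83 percentage points. Permuting the marks over the 5 lists gave an exact two-sided p = 0.2, so the difference was not distinguished from the spread between lists. The smallest p that 3 lists against 2 can give is 0.1. Without H3K27ac replicate 1 the difference was 3.67 percentage points. The H3K27ac list with the most tags had the most cover. H3K4me1 replicate 1 had the most tags of all 5 lists, 19513552, and the least cover. The part of depth in the difference was not tested.

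The direction in the stretch was the opposite of that of the lists as a whole. Over the span from first to last peak of the chromosomes, cover was 1.19, 0.990 and 0.891% for H3K27ac and 1.33 and 1.33% for H3K4me1, all 3 H3K27ac lists being lower. Relative to that, the Cd300 stretch held 17.4, 15.5 and 14.9 times the cover of its own list for H3K27ac, and 7.77 and 8.22 times for H3K4me1, given without a test. The stretch after it, which holds the strong region, was covered at 35.1, 31.5 and 32.1% by H3K27ac and 39.4 and 36.3% by H3K4me1, so there every H3K27ac list lay below both H3K4me1 lists. That order did not hold relative to each list's own cover of the series, of which the stretch after held 29.4, 31.8 and 36.0 times for H3K27ac and 29.6 and 27.3 times for H3K4me1. The stretch after also includes the bins from 115090000 on, which had 0% H3K27ac cover in all 3 lists. H3K4me1 replicates 1 and 2 covered 44.3 and 46.0%, 31.1 and 30.8%, and 10.7 and 8.72% of these bins in turn. How far the order rests on them was not tested.

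The difference lay in the part of the stretch before its midpoint at 114873000, a split chosen after the data were seen. There the cover was 32.5, 24.2 and 20.8% for H3K27ac and 13.6 and 13.6% for H3K4me1, a difference of 12.2 percentage points. After the midpoint it was 9.10, 6.52 and 5.80% for H3K27ac and 7.03 and 8.32% for H3K4me1, a difference of -0.53 percentage points, and the lists of the marks overlapped. The first part held 8 of the 11 regions with both marks of the stretch and the second 3. The near-identical Cd300ld copies, where peaks are uncertain, would lie in the second part if mm9 keeps the distances of GRCm38.p6. There the promoters of Cd300ld4, Cd300ld5 and Cd300ld3 start at 115026884, 115037641 and 115048281. These lie nearer to that of Cd300lf, at 115133943, than to that of Cd300a, at 114889791. Positions were not converted to mm9, so this was not checked. Because the split was chosen on these values, no test is given for it.

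**Figure D5:**
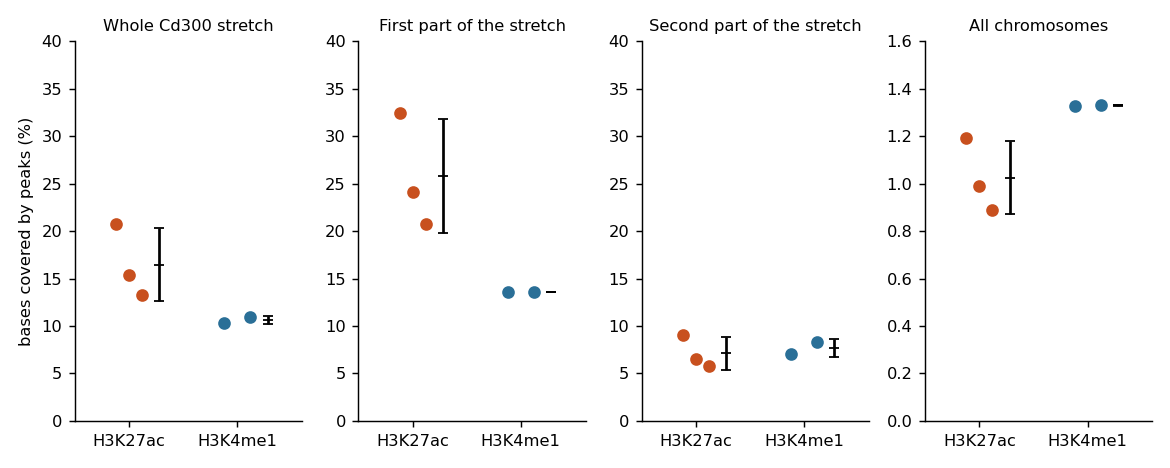
Percent of bases covered by peaks, for H3K27ac and then H3K4me1, in the whole Cd300 stretch, before and after its midpoint, and over all chromosomes on a scale of its own. Points are lists, and bars the mean ± SD (n = 3 for H3K27ac, n = 2 for H3K4me1): the H3K27ac lists lie at 20.8 to 32.5% before the midpoint, above both H3K4me1 lists at 13.6%, and overlap them after it.

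Peaks just inside and just outside the window's bounds had folds of 3.32 to 9.58. The first H3K27ac peaks inside lay 11288, 11485 and 11647 bp from its start, with folds of 7.33, 6.93 and 8.34, and the last before it lay 102938, 102904 and 188974 bp away with folds of 4.02, 6.11 and 7.22. For H3K4me1 the first inside lay 4474 and 7420 bp from the start with folds of 5.50 and 3.32, and the last before lay 15337 and 15712 bp away with folds of 6.01 and 3.75. At the far end, the last H3K27ac peaks inside had folds of 5.37, 9.58 and 8.27, and the first beyond, 6893 to 7434 bp away, had 4.49, 6.14 and 6.77. The last H3K4me1 peaks inside had folds of 4.22 and 4.94, and the first beyond, 6547 and 6277 bp away, had 9.28 and 6.43.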

How the data were processed

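ChIP-seq of H3K27ac (3 samples) and H3K4me1 (2 samples), each with its own input, was run on an Ion Torrent Proton sequencer (labels' protocols). Per the file headers, the authors called peaks with MACS2, each sample against its input without pooling, and kept those with a q-value of at most 0.001. The submitters' processing notes name mm9 and MACS2 2.0.10.20130306, whereas the headers of the H3K27ac lists name 2.1.1.20160309. No source used here gives the aligner. The deposited values of each peak are its position and summit, its signal (pileup of extended tags at the summit), its fold, a ratio to the local input background, and the −log10 p-value and −log10 q-value, all the authors'. Narrow peak calling splits marks that spread over kilobases, and a place with no peak may still carry the mark below the limit.

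Overlapping or touching peaks were joined. A consensus region was such a joined stretch, over all lists of a mark, with at least 1 peak from each, and regions of the marks overlapped from 1 bp. Consensus regions that overlapped across the marks were joined to regions with both marks, and placed by the mean over the 5 lists of the rank by fold, as a percent of each list. Cover was the percent of bases under peaks. Tiles had the width of the window and ran over the span of chromosomes 1 to 19 and X that holds peaks. Positions count from 1. Single-mark regions were named by mean rank, the best 5 of each mark with no peak of the other, of which H3K27ac had 2.

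The window, its genes, the lists and the test were chosen with earlier results of these data known. The only test was an exact two-sided permutation of the 5 lists. Peak annotation and marker genes were to be used only with an annotation of mm9, and were not used here. Promoter sequences were also planned only for mm9. RefSeq sequences of GRCm38.p6 are printed instead, as sequences, and the genes shown were picked after the sequences were seen. The alternatives were stricter q limits, lists of equal size, joining across 1000 bp, other overlap and stitching rules, pileup for fold and leaving out each list. Same-numbered lists of the marks were not taken as pairs, since the labels do not say that a number marks a shared culture. The code was tested on simulated intervals. Python 3.11.15, NumPy 2.4.6, pandas 2.3.3, SciPy 1.17.1 and Matplotlib 3.10.9 were used.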

Additional observations from a re-analysis of the deposited data

How the results depend on the processing

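Of the alternative values for counts, shares and cover, 72 stayed, 10 moved and 1 reversed. A count stayed if within 1.5 times the value reported, and a share if inside the 95% Clopper-Pearson interval of the reported share. The cover difference stayed if it kept its sign, as its p never fell below 0.1. The number of H3K4me1 consensus regions, 76, was 45 at a −log10 q of at least 10 and 41 with lists of equal size, where 73.2% of them overlapped H3K27ac, and it ranged from 76 to 115 with each list left out in turn, 115 being the count without H3K4me1 replicate 2. Joining peaks across 1000 bp gave 15 H3K27ac and 38 H3K4me1 consensus regions, of which 100% and 68.4% overlapped the other mark. Fewer peaks or fewer, longer regions enter under these settings by construction. The number of stitched clusters was 12 across 5000 bp and 4 across 25000 bp. The regions with both marks numbered 15 to 29 under all alternatives. The cover difference of the Cd300 stretch was 12.2 percentage points before its midpoint and -0.53 after it, a reversal whose cause was not tested. Leaving out each list in turn gave 3.67 to 7.43, the lowest without H3K27ac replicate 1, and lists of equal size gave 8.47 with an exact permutation p of 0.1, the smallest these lists allow. With the replicate block, which pairs same-numbered lists, the difference was 7.43 with an exact permutation p of 0.5, the smallest 2 pairs allow; the labels do not show that the numbers pair the lists. With pileup in place of fold, 24 of the 29 regions placed moved up in their lists and 5 down. Depth limits which weak peaks pass the caller's threshold, so a missing peak is no measure of absence.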

Other observations

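Within the 22 regions with both marks, the highest summits of the 3 H3K27ac lists spread over a median of 665.5 bp, with a range of 27 to 4399 bp. Those of the 2 H3K4me1 lists spread over a median of 123.5 bp, with a range of 4 to 4250 bp. The marks differ in their number of lists, which bears on such a spread, so the values are given without a comparison. The tightest H3K27ac summits were those of region 9, from 114827046 to 114828092, where H3K27ac summits lay within 27 bp and H3K4me1 summits within 13 bp. The widest were those of region 20, from 115048837 to 115054262, where H3K27ac summits lay 4399 bp apart and H3K4me1 summits 20 bp apart.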
